A study of Saccharomyces cerevisiae with 22 samples.

Results

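The regions described are the 301 bins of 1 kb whose midpoint lies within 10 kb of a centromere on 15 of the 16 chromosomes of budding yeast, Saccharomyces cerevisiae, out of 12073 bins in all, which is 2.49% of them. They were chosen by position alone, from a list of centromere positions given to 0.1 kb, and chromosome 3 was left out. The 29 bins with a midpoint under 1 kb away are called innermost bins, and 15 bins hold a centromere position. The counted unit was 1 distinct insertion site of the retrotransposon Ty5, that is 1 chromosome, position and direction with at least 1 read, and the 22 libraries held 4755 to 79573 sites each.

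A yeast centromere is a short stretch of DNA on which the kinetochore is built, around a single specialised nucleosome, and cohesin gathers on the chromatin at its sides. Ty5 is normally led to silent chromatin at chromosome ends and mating-type loci by Sir4, a silencing protein that holds its integrase. In the calling-card assay a transcription factor is fused to Sir4 so that Ty5 inserts beside the DNA the factor binds, and the insertions are then recovered by inverse PCR and sequenced.

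The Sir4-free library, the reference here, came from a diploid (MATa/MATα, his3∆1, leu2∆0 and ura3∆0 on both homologues, met15∆0/MET15, LYS2/lys2∆0) in which both SIR4 copies were replaced by KanMX and both TRP1 copies by Hyg. In 3 libraries of that background a fusion of Sir4 to Gal4, Leu3 or Gcn4 was overexpressed from a plasmid. The 16 multiplex libraries are 8 barcoded fusions (Gal4, Kar4, Lee1, Rgm1, Rpi1, Sef1, Sfg1 and Yrm1), each in pool 1 and pool 2, in the same diploid background; how they were expressed is not given in the labels. The 2 Thi2 libraries came from a haploid MATa strain that carried sir4::KanMX and trp1::Hyg, the deletions his3∆1, leu2∆0, ura3∆0 and met15∆0, and the native-locus fusion THI2::sir4, grown in complete medium or without thiamine. All strains thus lacked the native SIR4 gene. The labels name glucose or galactose without saying which library had which. The 3 bins inside SIR4 held no site in 18 libraries, 1 site in the pool 2 libraries of Sfg1 and of Yrm1, and 3 and 2 sites in the Thi2 libraries in complete and thiamine-free medium. The Sir4-free, plasmid and Thi2 conditions had 1 library each, so their tests compare libraries and not conditions. Brackets after shares, densities and ratios are 95% exact intervals (Clopper-Pearson for shares, conditional for ratios) and cover counting error only.

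Without Sir4, Ty5 sites were crowded close to the centromeres and thinned out within a few kilobases. The Sir4-free library had 2426 of its 79573 sites in the 301 bins, a share of 3.05% (2.93 to 3.17), and their density was 1.22 times the genome mean (1.18 to 1.27). The 29 innermost bins alone held 718 sites, 29.6% (27.8 to 31.5) of these, at a density 3.76 times the genome mean (3.49 to 4.04). The density was 1.58 times the mean at 1 to 2 kb (1.41 to 1.76), 1.34 at 2 to 3 kb (1.18 to 1.51) and 1.08 at 3 to 4 kb (0.94 to 1.24). Between 4 and 10 kb it lay between 0.60 and 0.97 times the mean in each 1-kb step, and the bins at 1 to 10 kb were on average at 0.95 times the mean. Single steps outside the region were above the mean again, with 1.49 at 11 to 12 kb (1.33 to 1.67), more than at 2 to 3 kb, and 1.22 at 13 to 14 kb (1.07 to 1.38). Of the 29 innermost bins, 28 were above the median of 4 sites over all bins, and their own median was 17 sites.

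**Figure D1:**
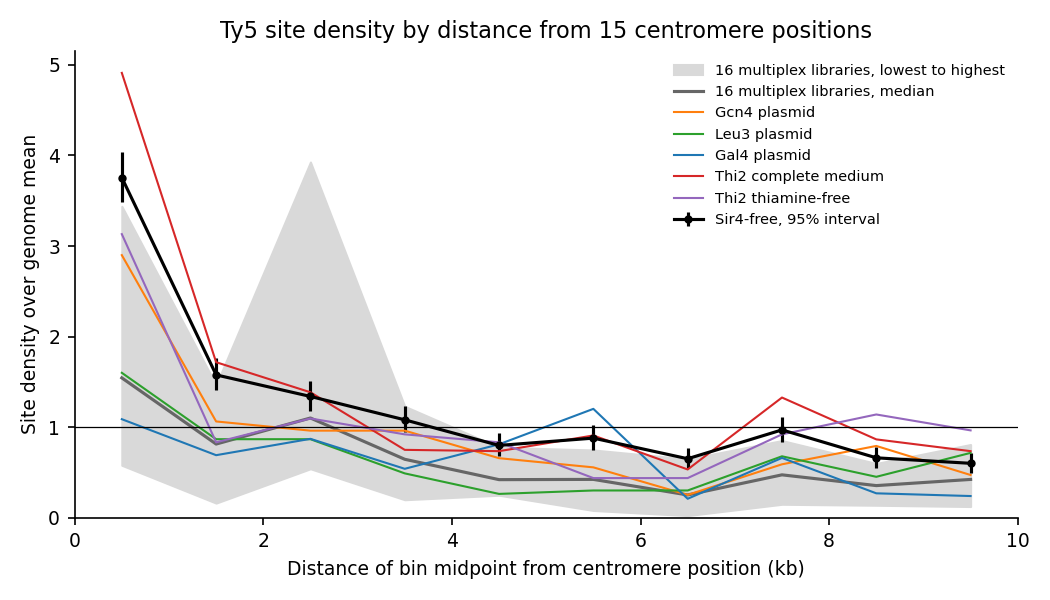
Site density by distance from the centromere positions (x, kb, both arms and 15 chromosomes together), as a multiple of the library's genome mean (y). Black points are the Sir4-free library with 95% intervals, coloured lines the plasmid and Thi2 libraries, and grey the median and the range of the 16 multiplex libraries; the Sir4-free density falls from 3.76 in the first kilobase to 1.08 at 3 to 4 kb.

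In steps of 100 bp the sites formed a peak on each side of the centromere with a dip between them. In the Sir4-free library the density was 7.38 times the genome mean at 200 to 300 bp to the left (73 sites) and 6.78 at 100 to 200 bp to the left (67 sites). It was 2.83 in the last 100 bp to the left (28 sites) and 4.55 in the first 100 bp to the right (45 sites). It rose again to 7.08 at 100 to 200 bp to the right (70 sites) and 6.58 at 200 to 300 bp (65 sites), and was 2.43 at 400 to 500 bp (24 sites). The other 21 libraries together also had a peak on each side, with 185 and 205 sites in the left peak, 53 and 100 sites in the dip and 224 and 202 sites in the right peak. The positions are known to 0.1 kb and the genome build of the files is not named, so the place of the dip is known only to about 1 such step.

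**Figure D2:**
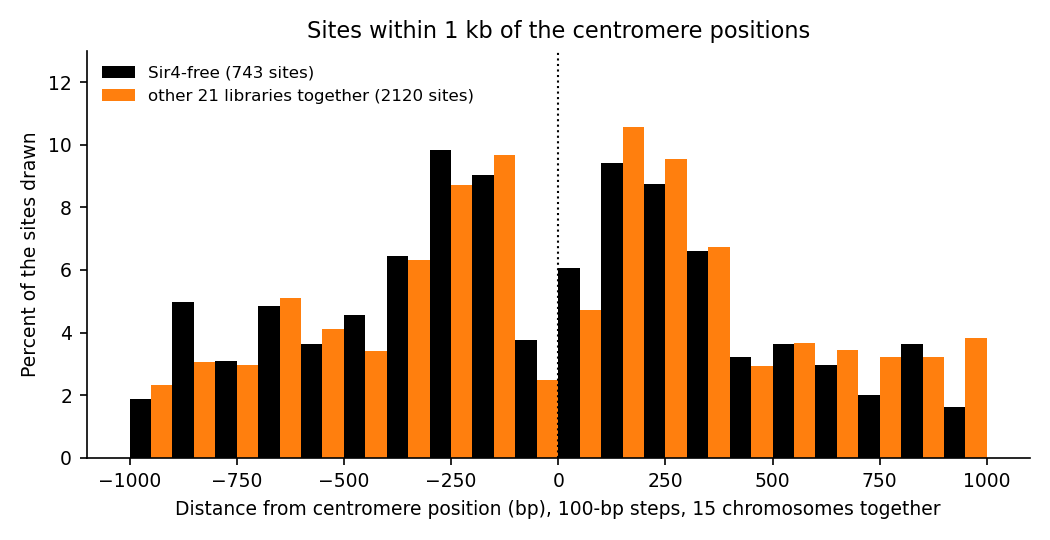
Sites within 1 kb of the centromere positions in steps of 100 bp (x, bp, left arm negative), as percent of the sites drawn (y), for the Sir4-free library (black) and the other 21 libraries together (orange). Both have peaks at 100 to 300 bp on each side and a dip in the 100 bp left of the position, which holds 28 Sir4-free sites.

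Most sites within 1 kb of the positions were seen in 1 library only. The 22 libraries held 2416 distinct sites there, of which 2108 were seen in 1 library and 308 in at least 2. Sites seen in at least 5 libraries numbered 12, the most being 7 libraries. The same count was not made over all bins, so whether this is particular to the centromeres was not tested. Of 1882 sites within 500 bp, 56.2% (53.9 to 58.5) pointed away from the centromere, that is on the plus strand to its right or the minus strand to its left. The Sir4-free share was 51.6% (47.1 to 56.0), an interval that holds 50%, and the interval lay above 50% in 3 of the 22 libraries, among them Gcn4 on the plasmid with 64.6%. By chromosome the share ran from 21.8% (11.8 to 35.0) of 55 sites on chromosome 13 to 75.0% (63.4 to 84.5) of 72 sites on chromosome 5, and it was above 50% on 13 of 15. These shares are a description and were not tested.

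All 15 centromeres had innermost bins above the genome mean in the Sir4-free library, and 12 were above 2 times the mean. The fullest of all 301 bins was the bin at the chromosome 4 centromere (449001 to 450000, between RMD1 and NTH1, the latter a neutral trehalase), with 71 sites. Only 0.133% of all 12073 bins had as many. The chromosome 10 bin beside AVT1, a vacuolar amino acid transporter (436001 to 437000), followed with 58 sites. The chromosome 1 bin between TFC3, a subunit of the RNA polymerase III factor TFIIIC, and the nuclear pore gene NUP60 (151001 to 152000) had 49. Both innermost bins of chromosome 5, between IRC22 and the mannosyltransferase gene MNN1, were full, with 44 sites (151001 to 152000) and 41 sites (152001 to 153000). The next bin into MNN1 (153001 to 154000, 1.5 kb away) had 37.

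The bin of the chromosome 8 centromere, at the oxysterol-binding protein gene OSH7 (105001 to 106000), had 42 Sir4-free sites. So did a bin 2.7 kb right of the chromosome 14 centromere at CIT1, the mitochondrial citrate synthase gene (631001 to 632000), which is not innermost. The list of the 10 fullest was completed by MET14, the kinase gene of sulphate assimilation, on chromosome 11 (439001 to 440000, 36 sites) and by the bin left of CIT1 (629001 to 630000, 35 sites). Most of the fullest bins were thus innermost bins, with those at MNN1 (1.5 kb) and CIT1 (2.7 kb) as the exceptions.

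The centromeres differed among themselves. The innermost Sir4-free density was highest on chromosome 1 at 7.43 times the genome mean (1 innermost bin), chromosome 5 at 6.45, chromosome 4 at 5.99, chromosome 10 at 5.39 and chromosome 14 at 5.01. It was 4.40 on chromosome 7 (ERG26, of sterol synthesis, and EFM5), 4.17 on chromosome 8 and 4.02 on chromosome 11. Chromosome 6 (DEG1 and LOC1) had 2.96, chromosome 9 (YIL001W and SGN1) 2.66, chromosome 2 (ECM15 and the trehalase gene NTH2) 2.58 and chromosome 16 (HAT1 and CIT3) 2.43. The lowest were chromosome 12 (DNM1, of mitochondrial fission, and YLR001C) at 1.82, and chromosomes 13 (the vacuolar Rab gene YPT7 and the polo kinase gene CDC5) and 15 (PHO80 and RRP6) at 1.44 each, the last 2 from 19 sites in 2 bins. In the other 21 libraries the median innermost density was above the genome mean on 12 of the 15 chromosomes, the exceptions being chromosomes 12 (0.90), 13 (0.52) and 15 (0.34). The same 3 chromosomes were lowest in the Sir4-free library.

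**Figure D3:**
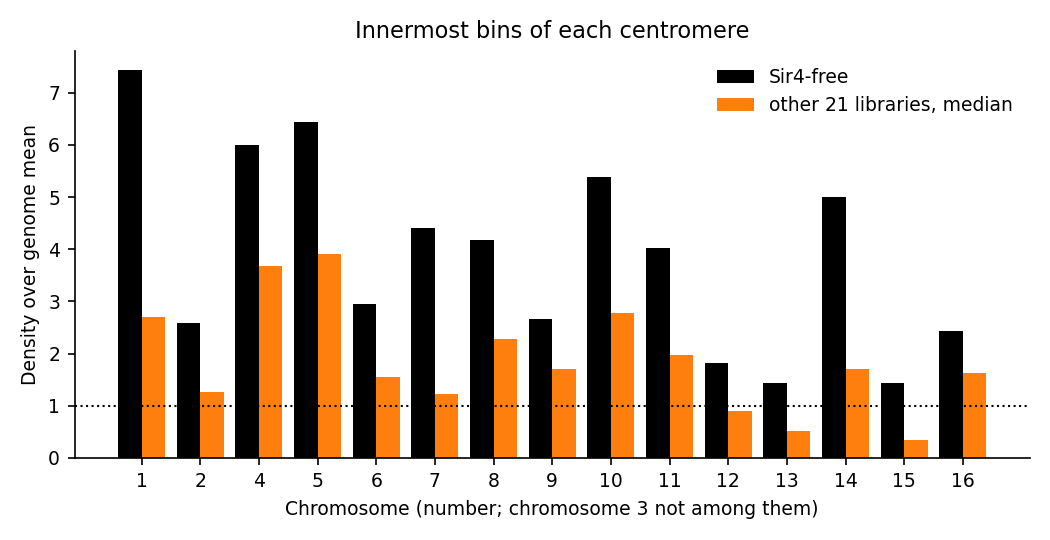
Density of the innermost bins over the genome mean (y) for each chromosome (x), in the Sir4-free library (black) and as the median of the other 21 libraries (orange). The Sir4-free bars run from 1.44 on chromosomes 13 and 15 to 7.43 on chromosome 1, and all are above 1.

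The bin at the centromere position itself shows the spread over libraries. The chromosome 4 bin had 71 Sir4-free sites, 35 with Gcn4, 7 with Gal4 and 3 with Leu3 on plasmids, and 34 and 5 in the Thi2 libraries in complete and thiamine-free medium. In the multiplex it had 58 and 12 sites with Sfg1, 25 and 12 with Lee1, 15 and 15 with Kar4, 10 and 4 with Rpi1, and 0 to 4 in each library of the other 4 fusions. The chromosome 13 bin, by contrast, had 5 Sir4-free sites and no more than 6 in any library.

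The share of sites around the centromeres was lower in all 3 plasmid libraries than without Sir4. Gal4 had 219 of 13383 sites there, 1.64% (1.43 to 1.87), which is 0.537 times the Sir4-free share (0.465 to 0.617; two-sided Fisher's exact test, Benjamini-Hochberg adjusted over 5 libraries, adjusted p = 1.33e-21). With positions within 5 bp joined into 1 site this ratio was 0.811 (Fisher's exact test, adjusted p = 0.00843). Leu3 had 172 of 10662 sites, 1.61% (1.38 to 1.87), a ratio of 0.529 (0.451 to 0.618; Fisher's exact test, adjusted p = 1.10e-18). Gcn4 had 541 of 23833 sites, 2.27% (2.09 to 2.47), a ratio of 0.745 (0.677 to 0.818; Fisher's exact test, adjusted p = 1.67e-10). With positions joined in the same way the Leu3 ratio was 0.663 (Fisher's exact test, adjusted p = 2.9e-07). The Gcn4 ratio was then 0.874 (Fisher's exact test, adjusted p = 0.0093). Of the Gal4 sites 58.7% lay in bins higher than in the Sir4-free library, against 35.1% for Leu3 and 22.4% for Gcn4, and sites there add to the total of which the share is taken. These bins, 149 for Gal4, 106 for Leu3 and 136 for Gcn4, were called from these same counts. Ratios and intervals outside them thus depend in part on that choice. Among the remaining sites the ratio was 1.06 for Gal4 (0.91 to 1.23), 0.740 for Leu3 (0.627 to 0.869) and 0.923 for Gcn4 (0.839 to 1.01). Of these 3 intervals only that of Leu3 lay below 1. Within 20 kb instead of 10 kb the Leu3 ratio was 1.04 (Fisher's exact test, adjusted p = 0.391).

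The innermost bins moved further than the whole region with Gal4. They held 35 Gal4 sites, 0.290 times the Sir4-free share (0.200 to 0.407; Fisher's exact test, adjusted p = 2.23e-17), and their density was 1.09 times the genome mean (0.76 to 1.51). With Leu3 they held 41 sites, a ratio of 0.426 (0.303 to 0.584; Fisher's exact test, adjusted p = 5.67e-09), at 1.60 times the mean. With Gcn4 they held 166 sites, a ratio of 0.772 (0.648 to 0.915; Fisher's exact test, adjusted p = 0.00285), at 2.90 times the mean. Outside each library's higher bins the innermost ratio was 0.668 for Gal4 (0.462 to 0.938), 0.633 for Leu3 (0.450 to 0.867) and 0.957 for Gcn4 (0.803 to 1.13). These ratios too depend in part on bins called from the same counts.

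**Figure D4:**
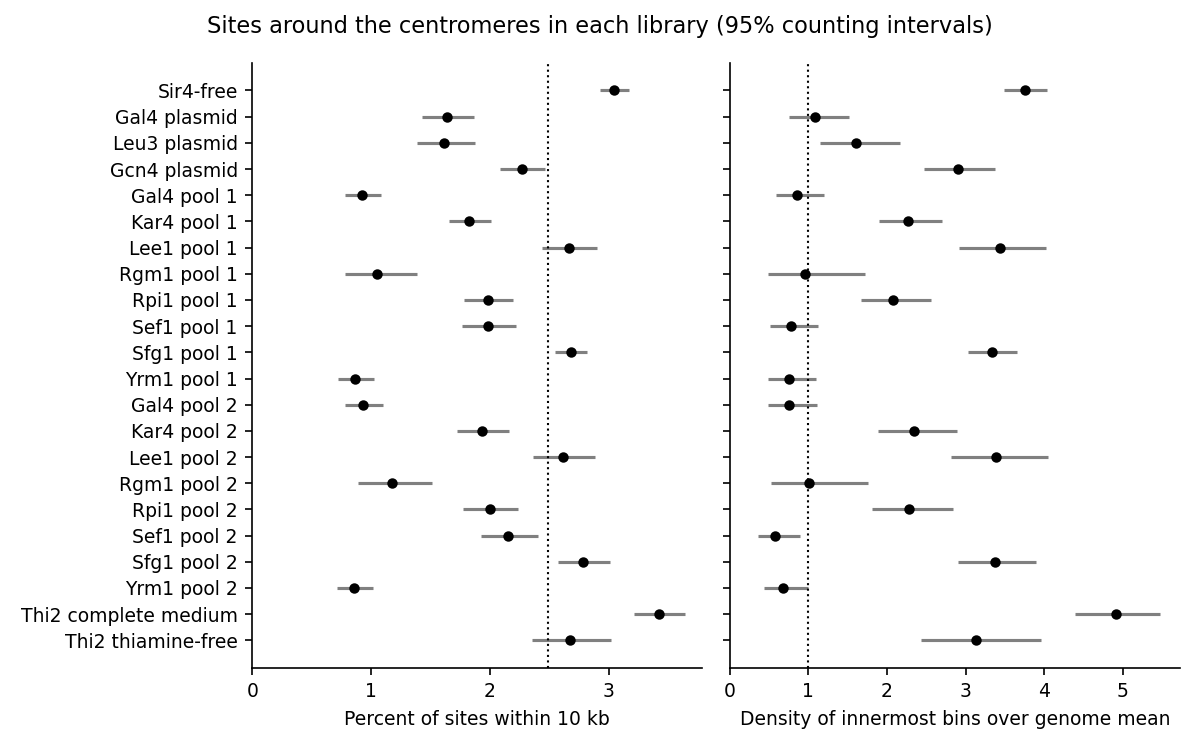
Percent of each library's sites in the 301 bins (left) and density of the 29 innermost bins over the genome mean (right), 1 row a library, with 95% counting intervals. The dotted lines mark 2.49%, the bins' share of all bins, and a density of 1; the Thi2 library in complete medium is the highest in both panels.

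Around the centromeres the Thi2 library in complete medium was fuller than the Sir4-free library and the library without thiamine was less full than either. In complete medium 954 of 27883 sites lay in the 301 bins, 3.42% (3.21 to 3.64), which was 1.12 times the Sir4-free share (1.04 to 1.21; Fisher's exact test, adjusted p = 0.00305). The innermost bins held 329 sites at 4.91 times the genome mean, 1.31 times the Sir4-free share (1.14 to 1.49; Fisher's exact test, adjusted p = 0.000118). Without thiamine 245 of 9171 sites lay in the 301 bins, 2.67% (2.35 to 3.02), a ratio to the Sir4-free share of 0.876 (0.765 to 0.9997; Fisher's exact test, adjusted p = 0.0454). The innermost bins held 69 sites at 3.13 times the mean, with a ratio of 0.834 (0.642 to 1.07; Fisher's exact test, adjusted p = 0.158). The library without thiamine had 0.781 times the share of the library in complete medium (0.676 to 0.899; two-sided Fisher's exact test, p = 0.000352), and 0.638 times in the innermost bins (0.485 to 0.829; Fisher's exact test, p = 0.000442). The call of the library without thiamine against the Sir4-free library was lost under 4 alternatives (Fisher's exact test, adjusted p from 0.0904 to 0.274), and that of the library in complete medium within 20 kb (1.06, adjusted p = 0.0610). The Thi2 strain was haploid and the Sir4-free strain diploid, so strain and fusion cannot be told apart in the first comparison.

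Single bins around the centromeres rarely stood above the Sir4-free library. With Gal4 on the plasmid 1 of 175 tested bins was higher (over all bins tested, 2.67% were called). It was the bin at ATO2, a putative ammonia exporter gene, and RPC34, a subunit gene of RNA polymerase III, on chromosome 14 (634001 to 635000, 5.7 kb right). It held 33 Gal4 sites against 21 in the larger Sir4-free library, a ratio of 9.34 (5.25 to 16.99; Fisher's exact test, adjusted p = 2.72e-13). With Leu3 1 of 171 was higher (1.89% of all), the GIS4 bin on chromosome 13 (258001 to 259000, 9.6 kb left), with 11 sites against 15, a ratio of 5.47 (2.27 to 12.8; Fisher's exact test, adjusted p = 0.00507). With Thi2 in thiamine-free medium 1 of 179 was higher (0.396% of all). It was the bin at THI73, a permease gene repressed by thiamine, and SSL1, a TFIIH subunit gene, on chromosome 12 (159001 to 160000, 8.6 kb right), with 9 sites against 6, a ratio of 13.01 (4.14 to 44.4; Fisher's exact test, adjusted p = 0.00155). These bins are also the fullest of the 301 in their libraries.

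None of 183 tested bins was higher with Gcn4 (2.22% of all bins) and none of 208 with Thi2 in complete medium (0.119%). None was lower in any of the 5 comparisons, in which 0.179% of all bins were lower for Gal4, 0.0356% for Leu3, 0.244% for Gcn4, 0.104% for Thi2 in complete medium and 0% for Thi2 without thiamine. Between the Thi2 libraries 0 of 78 tested bins were called, against 0.404% of all bins higher without thiamine and 0% lower. The median bin held 5 Sir4-free sites and 0 sites with Gal4, Leu3 or starved Thi2, so a fall in a single bin was mostly not detectable at this depth.

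Windows of 20 kb centred on the centromere hold enough sites for such a test. With Gal4 11 of the 15 centromere windows were lower than in the Sir4-free library, where 57.8% of all windows were lower. Their ratios ran from 0.193 on chromosome 6 (4 sites against 123; Fisher's exact test, adjusted p = 0.000295) to 0.574 on chromosome 4 (19 against 197; Fisher's exact test, adjusted p = 0.0314). With Leu3 4 windows were lower (13.3% of all), those of chromosomes 2, 6, 11 and 14. With Gcn4 6 were lower (11.3% of all), those of chromosomes 1, 6, 7, 10, 12 and 14, between 0.427 times on chromosome 1 and 0.671 times on chromosome 14. Chromosome 6 was lower in all 3. With Thi2 in complete medium the chromosome 8 window was higher, with 109 sites against 206, a ratio of 1.51 (1.19 to 1.91; Fisher's exact test, adjusted p = 0.0180), where 1.62% of all windows were higher.

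Among the 8 multiplex fusions the share of sites around the centromeres differed more between fusions than between the 2 pools of a fusion. The 2 pools gave nearly the same share for each: 2.68% and 2.78% with Sfg1, 2.66% and 2.62% with Lee1, 1.99% and 2.15% with Sef1, and 1.98% and 2.00% with Rpi1. Kar4 had 1.83% and 1.93%, Rgm1 1.05% and 1.17%, Gal4 0.925% and 0.929%, and Yrm1 0.864% and 0.855%. The highest mean, with Sfg1, 2.73% ± 0.07 (SD, n = 2), was 3.18 times the lowest, with Yrm1, 0.860% ± 0.006 (SD, n = 2), and with positions within 5 bp joined into 1 site the highest mean was 2.06 times the lowest. The spread within fusions was as small as seen in few of the 2027025 ways to pair the 16 libraries (exact permutation test, one-sided, p = 9.87e-07, where the smallest possible is 4.93e-07). Sfg1 and Lee1 did not overlap with the other 6 fusions, whereas the Sef1, Rpi1 and Kar4 libraries lay together between 1.83% and 2.15%.

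Set singly against the 14 other libraries, no fusion passed. Sfg1 had the smallest p (mean 2.73% against 1.64%; exact permutation test, two-sided, p = 0.00833, the smallest that 120 arrangements allow, adjusted over 8 fusions 0.0667), so this design cannot reach 0.05 after adjustment. Against the Sir4-free share all 16 multiplex libraries were lower, with ratios from 0.280 for Yrm1 in pool 2 (0.233 to 0.335) to 0.913 for Sfg1 in pool 2 (0.835 to 0.998). The bins higher than in the Sir4-free library hold 73.9% of the Gal4 sites in pool 2 but none of the Sfg1 sites there. Outside each library's higher bins the ratio was 0.875 and 1.01 for Gal4, 0.882 and 0.913 for Sfg1, and 0.550 and 0.558 for Yrm1. It was 0.875 and 0.858 for Lee1, 0.842 and 0.833 for Rpi1, and 0.740 and 0.793 for Kar4. For Sef1 it was 0.619 and 0.648, and for Rgm1 0.542 and 0.502, so the order of the fusions was not that of the shares. The bins left out were called from these same counts, so these ratios and their order depend in part on that choice.

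In the innermost bins Sfg1 and Lee1 were again the densest, and Sef1 fell to the level of the lowest fusions. The innermost density was 3.33 and 3.37 times the genome mean with Sfg1, 3.44 and 3.39 with Lee1, 2.27 and 2.35 with Kar4, and 2.08 and 2.28 with Rpi1. It was 0.963 and 1.01 with Rgm1, 0.853 and 0.749 with Gal4, and 0.748 and 0.673 with Yrm1. Sef1, with a share of the whole region like that of Rpi1, had 0.777 (0.516 to 1.12) and 0.580 (0.355 to 0.896), so its innermost bins were less dense than its bins at 1 to 10 kb, at 0.799 and 0.894. In the other 20 libraries of the series the innermost bins were denser than the outer ones.

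For Sef1 a few bins beside the centromeres made up most of the region's sites. The CIT1 bin on chromosome 14 held 110 and 109 of the 298 and 309 Sef1 sites of the region, against 3 to 33 sites (median 9) in the other 14 multiplex libraries and 42 in the Sir4-free library. Both Sef1 libraries were above all others: the bin had 0.747% ± 0.019 (SD, n = 2) of the Sef1 sites and 0.026% to 0.097% of the others' (edgeR quasi-likelihood test against the mean of the other 7 fusions, log2 fold change 3.82, SE 0.20, adjusted p = 3.20e-80). The PDH1 bin on chromosome 16 (558001 to 559000, 2.5 kb right), at a gene for a mitochondrial 2-methylcitrate dehydratase, had 21 sites in each pool against 0 to 8 (log2 4.29, SE 0.48, edgeR adjusted p = 4.00e-17). A bin on chromosome 8 at STE20, SHU1, YHL005C and MRP4 (98001 to 99000, 7.1 kb left) had 21 and 23 against 0 to 30 (log2 3.25, SE 0.39, edgeR adjusted p = 5.63e-15), where the library with 30 was the larger Sfg1 library of pool 1 and the Sef1 shares were the highest.

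Sef1 had 8 of the 160 tested bins higher (3.66% of all 5460 tested bins were). The others were at CDC5 and MIX17 on chromosome 13 (271001 to 272000, 9 and 16 sites, log2 3.26, edgeR adjusted p = 9.84e-08) and the bin next to it (272001 to 273000, 5 and 8 sites). They were also at PAP1, the poly(A) polymerase gene, and OSH6 on chromosome 11 (444001 to 445000, 7 and 8 sites, log2 4.42, edgeR adjusted p = 1.92e-06), at MNN1 on chromosome 5 (10 and 10 sites), and at CIT3, another mitochondrial citrate synthase gene, on chromosome 16 (556001 to 557000, 7 and 3 sites). The bins held 63.8% and 64.1% of the region's Sef1 sites, and without them the region had 0.720% and 0.774% of the libraries' sites. They were called from these same counts, so a high share in them follows in part from the choice. The called bins of the other 7 fusions held from 0% (Yrm1) to 35.0% (Sfg1 in pool 1) of the region's sites. The CIT1, PDH1, STE20, CDC5 and PAP1 bins were higher under all alternatives checked for them that gave a value. The CIT3 call was lost without the pool 1 library (adjusted p = 0.940), the MIX17 call (272001) without the pool 2 library (0.486) and the MNN1 call without either (0.0622 and 0.105, all edgeR).

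**Figure D5:**
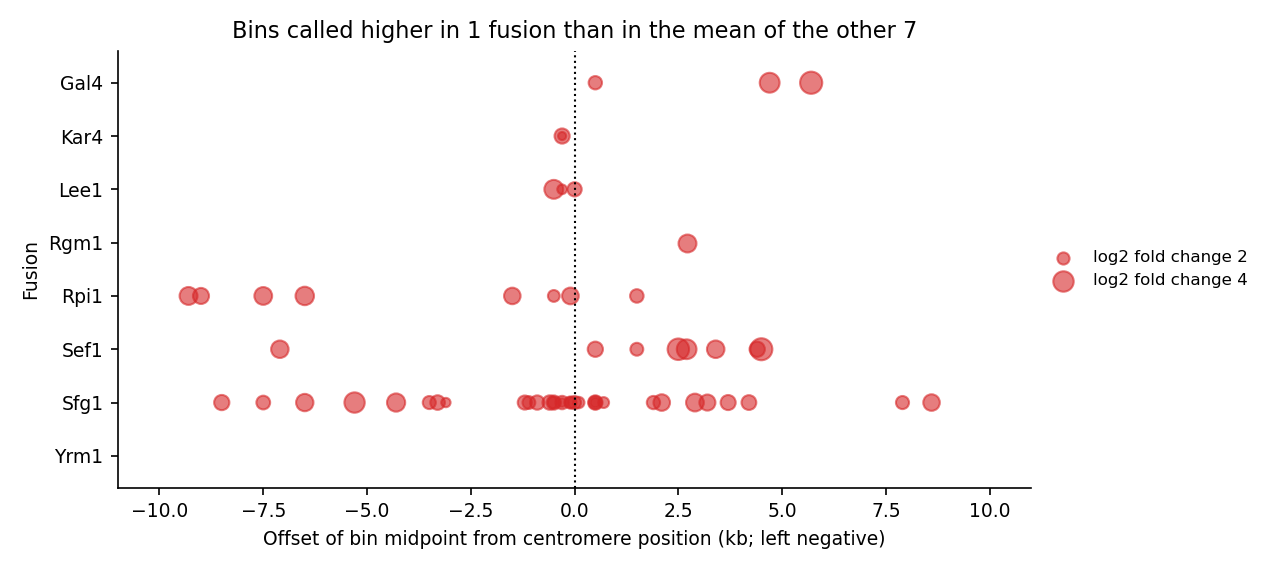
Bins around the centromeres higher in 1 fusion than in the mean of the other 7 (edgeR, adjusted p under 0.05), by offset of the bin midpoint from the centromere position (x, kb) and fusion (y), point area growing with the log2 fold change. The 8 Sef1 bins lie mostly 2 to 5 kb to the right, the 32 Sfg1 bins are spread with many near 0, and Yrm1 has none.

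Gal4 in the multiplex had 3 bins higher (3.61% of all). The ATO2 and RPC34 bin that stood out on the plasmid had 27 and 13 sites against 0 to 5 in the other 14 libraries (median 2; log2 4.47, SE 0.46, edgeR adjusted p = 2.82e-20). Its neighbour at ATO2 (633001 to 634000) had 7 and 8 against 0 to 5 (log2 3.85, edgeR adjusted p = 2.21e-06, and 0.544 with sites of at least 5 reads). The bin near MNN1 at the chromosome 5 centromere had 10 and 5 against 0 to 23 (log2 2.27, edgeR adjusted p = 0.00525). This call was not kept without the pool 1 library (log2 1.84). The bin held 0.0490% of the Gal4 sites, below the Sir4-free share of 0.0515%. By Fisher's exact test against the Sir4-free library, 1 of 170 tested bins of the region was higher with Gal4 in pool 1 and 1 of 171 in pool 2. Over all bins 150 and 146 were higher. Rgm1 had 1 bin higher (1.41% of all), at NTH1 and YRB1 on chromosome 4 (452001 to 453000, 2.7 kb right), with 4 and 11 sites against 0 to 7 (log2 3.36, edgeR adjusted p = 1.48e-05, and 0.599 without the pool 2 library).

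Rpi1 had 8 bins higher (3% of all), of which 4 were on chromosome 5. By Fisher's exact test against the Sir4-free library, 0 of 178 tested bins of the region were higher with Rpi1 in pool 1 and 1 of 178 in pool 2. Over all bins 82 and 81 were higher. The MET14 bin held 0.0430% of the Rpi1 sites, below its Sir4-free share of 0.0452%, and the other called bins were above their Sir4-free shares. The bin with the smallest edgeR p was at SIS1, an Hsp40 co-chaperone gene, and LST8, of the TOR complexes, on chromosome 14 (619001 to 620000, 9.3 kb left), with 8 and 10 sites against 0 to 11 (log2 3.36, SE 0.67, edgeR adjusted p = 3.68e-05). It was the single Rpi1 bin called under all alternatives checked for it. LOC1 on chromosome 6 (148001 to 149000) followed with 11 and 7 sites (log2 3.06, edgeR adjusted p = 0.000200), and MNN1 (153001 to 154000) with 15 and 11 (log2 2.31, edgeR adjusted p = 0.000320). Without the pool 1 library these had adjusted p-values of 0.0793 and 0.0710. The other bins held 3 to 8 sites in each Rpi1 library. They lay at YEA6 and beside it, at WBP1 and IRC22 (all chromosome 5), at EFB1 on chromosome 1, and at MET14, whose edgeR adjusted p was 0.0496 and became 0.0517 with the pool as a replicate block. Without the pool 2 library none of these 5 passed (edgeR adjusted p from 0.153 to 0.358).

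Kar4 had 2 bins higher (4.60% of all), both innermost. The bin near RMD1 on chromosome 4 had 15 and 15 sites against 0 to 58 in the other 14 libraries (log2 1.17, edgeR adjusted p = 0.0384). That near DOM34 on chromosome 14 (628001 to 629000) had 4 and 5 against 0 to 8 (log2 2.69, edgeR adjusted p = 0.0396). These 2 bins held 0.0805% and 0.0247% of the Kar4 sites, below the Sir4-free shares of 0.0892% and 0.0390%. Neither passed without the pool 1 library (edgeR adjusted p = 0.0971 and 0.0921) or the pool 2 library (0.369 and 0.288). Lee1 had 3 higher (0.531% of all), all innermost. ERG26 on chromosome 7 (496001 to 497000) had 12 and 6 sites against 0 to 17 (log2 3.61, edgeR adjusted p = 0.000243). TFC3 and NUP60 had 14 and 8 against 0 to 24 (log2 2.48, edgeR adjusted p = 0.00266). The bin near RMD1 had 25 and 12 against 0 to 58 (log2 1.47, edgeR adjusted p = 0.00780). Their Lee1 shares were 0.0528%, 0.0649% and 0.108%, against 0.0302%, 0.0616% and 0.0892% in the Sir4-free library. By Fisher's exact test against that library, 0 tested bins of the region were higher in any Kar4 or Lee1 library. Over all bins 112 and 89 were higher for Kar4 and 1 and 0 for Lee1. All 3 Lee1 calls were lost without its pool 1 library (edgeR adjusted p from 0.162 to 0.450). Yrm1 had 0 bins higher, with 1 at an unadjusted p under 0.05 and 0 by DESeq2 (4.01% of all bins were higher in edgeR).

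Sfg1 had 32 of 160 bins higher than the mean of the other 7 fusions by edgeR, against 8.59% of all bins tested. The smallest p was at AVT1 on chromosome 10, with 45 and 19 sites against 0 to 12 in the other 14 libraries (log2 1.85, SE 0.34, adjusted p = 5.16e-05, and 0.0627 without the pool 1 library). ERG26 and EFM5 on chromosome 7 (497001 to 498000) had 22 and 15 against 0 to 7 (log2 2.52, SE 0.51, edgeR adjusted p = 0.000380), and TFC3 and NUP60 on chromosome 1 had 24 and 15 against 0 to 14 (log2 2.20, SE 0.48, edgeR adjusted p = 0.00161). The next by p were QCR10 and LEU5 (10 and 9 sites), OSH7 (27 and 14), the bin near RMD1 (58 and 12), MCD1, a cohesin subunit gene (11 and 2), MET14 (27 and 8), NTH2 (13 and 6) and MPP10 (13 and 4). The count rested on the pool 1 library, which had 54987 sites against 22233 in pool 2. It was 3 without the pool 1 library, 19 without the pool 2 library and 4 by DESeq2. The shift was also one of all bins, since the median log2 fold change for Sfg1 was 1.44 over the 160 bins and 1.20 over all bins. Against the Sir4-free library 0 of 215 tested bins were higher in pool 1 and 0 of 183 in pool 2 (Fisher's exact test). Over all bins these were 5 of 7382 and 0 of 6216. The AVT1 bin held 0.0837% of the Sfg1 sites and 0.0729% of the Sir4-free sites. For ERG26 and EFM5 the shares were 0.0537% and 0.0427%, and for TFC3 and NUP60 0.0556% and 0.0616%.

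The median log2 fold changes of the 160 bins, set beside those of all 5460 bins, were higher in 4 of the other 7 fusions and lower in 3. They were 1.21 against 0.97 for Lee1, 1.11 against 0.89 for Kar4, 0.61 against 0.59 for Rpi1, -0.26 against -0.13 for Sef1, -0.43 against 0.003 for Yrm1, -0.84 against -1.74 for Gal4 and -2.14 against -1.79 for Rgm1. For Rpi1 the medians were thus nearly equal. All follow TMM normalization, so their direction need not be that of the plain share. Gal4, for example, had a mean share of 0.927% around the centromeres against 1.90% in the other 14 libraries. In all 8 fusions together 57 calls were higher and 0 lower by edgeR, with 15 lower at an unadjusted p under 0.05 and 1 lower by DESeq2. Of all bins, edgeR called 0.147% lower for Gal4, 0.842% for Kar4, 0.531% for Lee1, 0.897% for Rgm1, 0.220% for Rpi1, 0.0183% for Sef1, 0.897% for Sfg1 and 0.513% for Yrm1. The 57 fell to 18 by DESeq2 and to 29 with sites of at least 5 reads, and were also fewer without the Sfg1 library of pool 1. Each call was checked under 4 to 7 alternatives that gave a value, and 10 held under all of these. The alternatives checked left out a library of the called fusion, but not of another fusion. MCD1 with Sfg1 is among the 10 but had a value under only 4, none of them without the pool 1 library.

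The 20-kb windows gave 21 higher and 10 lower calls over the 8 fusions in edgeR. These calls set a fusion against the other 7 after TMM normalization, so their direction need not follow the plain share of sites. DESeq2 gave 14 higher and 7 lower, and edgeR on sites of at least 5 reads gave 9 higher and 3 lower. Sef1 was higher on chromosomes 8, 13, 14 and 16, where 18.3% of all windows were higher, and lower on chromosome 4 (5.84% of all). Its chromosome 14 window, with 126 and 121 sites, had a log2 fold change of 2.52 (SE 0.15, edgeR adjusted p = 1.94e-62). Gal4 was higher on chromosomes 5 and 14 (18.2%), and Rpi1 on chromosomes 5 and 6 (8.44%). The 2 Gal4 windows held 0.122% and 0.270% of its sites, against 0.258% and 0.307% of the Sir4-free sites. On chromosome 5 the Gal4 share was below those of Sef1 (0.133%), Kar4 (0.141%), Lee1 (0.197%), Sfg1 (0.247%) and Rpi1 (0.314%). It was above those of Rgm1 (0.0413%) and Yrm1 (0.0512%). Lee1 was higher on chromosomes 1, 6, 7 and 10 (8.77%) and lower on 14 (17%). Kar4 was higher on chromosomes 1, 9 and 15 (13.1%) and lower on 14 (20.5%). On chromosomes 1, 9 and 15 its shares were 0.164%, 0.143% and 0.0873%, against 0.157%, 0.177% and 0.132% in the Sir4-free library. Rgm1 was higher on chromosome 4 (8.93%) and lower on 5 and 14 (7.14%). Sfg1 was higher on chromosomes 6, 7, 8, 9 and 10 (10.1%) and lower on 14 (20.8%). Its chromosome 14 share of 0.263% was above those of Kar4 (0.157%), Lee1 (0.195%), Rgm1 (0.0930%), Rpi1 (0.235%) and Yrm1 (0.154%). It was below those of Gal4 (0.270%), Sef1 (0.842%) and the Sir4-free library (0.307%). Yrm1 was lower on chromosomes 1, 5, 8 and 11 (6.66%).

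The 10-kb limit falls beside 1 crowded bin. Just outside it, 10.5 kb left of the chromosome 5 centromere, the bin at YEL008W and MIT1 (141001 to 142000) had 1793 sites over all libraries, 672 and 576 of them with Rpi1. The fullest bins just inside were GIS4 on chromosome 13 with 119 sites, SSA1 and EFB1 on chromosome 1 (141001 to 142000) with 61, and SIS1 and LST8 with 60. The median over the 30 nearest bins was 10 sites inside and 14 outside. Of the 301 bins, 4 held no site in any library and 20 none in the Sir4-free library.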

How the data were processed

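Per the labels and the series text, each deposited file lists chromosome, position, direction and the authors' raw counts of reads at each Ty5 insertion site, and nothing was normalized. Which aligner, build and read filters they used is not stated there. Each chromosome, position and direction was counted once as 1 site, including 4019 sites that the Sir4-free file lists more than once, and sites were summed in 1-kb bins and 20-kb windows of the data's own coordinates. Bins were named by R64 genes (NCBI RefSeq annotation) whose 5′ end lies in them or within 500 bp (900 bp on chromosome 11, where R64 is displaced), otherwise as near the closest gene. The named bins were the centromere bins, the 10 fullest Sir4-free bins, up to 10 called bins per comparison and direction, the fullest bin of each library and the bins at the 10-kb limit.

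Single libraries were compared by Fisher's exact test (at least 5 sites in both together, adjusted over all bins or windows). All 16 multiplex libraries entered 1 fit in edgeR 4.0.16 (TMM, glmQLFit, glmQLFTest; at least 10 sites in the 16 libraries; library size all sites), contrasting a fusion with the average of the remaining 7, with DESeq2 1.42.0 as an alternative (R 4.3.3, limma 3.58.1). Python 3.11.15 served elsewhere, with scipy 1.17.1, pandas 2.3.3, numpy 2.4.6 and, for figures, matplotlib 3.10.9. The threshold was an adjusted p of 0.05. Both tests were checked on simulated data. The simulated libraries shared the same bin rates apart from the changed bins, so the check does not cover strong differences in composition between libraries. The labels' replicate number marks a pool shared by the 8 fusions. Over 252 well-filled bins the deviations of 2 fusions in the same pool correlated with a median of 0.0757 over 28 pairs (-0.0496 to 0.176). The regions and tests were chosen with earlier results of these data known. No sequence is printed, as none was used here.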

Additional observations from a re-analysis of the deposited data

How the results depend on the processing

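Radius, read minimum, joining of sites, normalization, filters, the replicate block and leaving out libraries were varied. The Sir4-free density of 1.22 became 1.68 within 5 kb, 1.11 within 20 kb and 1.17 with at least 5 reads, and the innermost 3.76 became 3.35 with at least 5 reads and 3.09 with positions within 5 bp joined. Within 20 kb the ratio to the Sir4-free share was 1.04 for Leu3, on the other side of 1 (adjusted p = 0.391, Fisher's exact test), 1.06 for Thi2 in complete medium (0.0610) and 0.918 for starved Thi2 (0.0904). The starved Thi2 ratio also lost its call with at least 5 reads (0.887) and with joined sites (0.923). Outside the bins higher than in the Sir4-free library it was 0.885, Gcn4 was at 0.923 without a call and Gal4 at 1.06, on the other side of 1. Those bins were called from these same counts. The causes were not tested. The starved to complete-medium ratio stayed between 0.716 and 0.865, and the highest to lowest fusion share between 2.06 and 3.65 (3.12 to 3.24 leaving out a library).

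Member calls in the multiplex were 57 higher and 0 lower. DESeq2 gave 18 and 1, at least 5 reads gave 29 higher, and DESeq2 size factors gave 1 lower. Leaving out each library gave 27 to 57 higher and 0 to 1 lower. With at least 5 reads the windows gave 9 higher and 3 lower instead of 21 and 10, and leaving out a library gave 17 to 21 and 7 to 12. In single-library comparisons at least 2 reads gave 1 lower bin instead of 0 and 2 higher windows instead of 1. The replicate block, with the pool number in the fit, left 49 higher bins, 0 lower bins, and 21 higher and 10 lower windows, and the highest to lowest fusion share at 3.18; it changed no other call by count. Depth limits single bins most, since 3 sites are 0.0631% of the smallest library and 0.00377% of the Sir4-free library.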
